A study of Caenorhabditis elegans with 2 samples.

Results

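The coding-exon regions of the HMBX-1 profile are the regions of the pooled relaxed list whose summit, the position of highest enrichment, lay in protein-coding sequence away from gene starts and small RNA genes. A region was a member when its summit lay inside an annotated coding segment of a protein-coding gene, more than 500 bp from every protein-coding gene start and more than 250 bp from every tRNA, snoRNA, snRNA, rRNA or miRNA gene. The rule used position only and no signal value. It found 2627 members among 30000 regions, of which 2623 lay on the 6 nuclear chromosomes and 4 on the mitochondrial genome; the latter are described apart. Chromatin immunoprecipitation with sequencing was made from whole early embryos of Caenorhabditis elegans, 45 min after synchronization by the bleaching of eggs, with both sexes pooled. All samples were of strain OP656, genotype unc-119 (tm4063) III; wgIs656, a stably transformed line in which HMBX-1 carries GFP and FLAG at its C terminus. There were 2 biological replicates of this 1 group, so no conditions could be compared, and no untagged strain was analysed here. The description names an antibody against GFP while the antibody field names hmbx-1, and the labels do not settle which applies.

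HMBX-1 is a homeodomain protein related to human HMBOX1, which binds double-stranded telomere repeats in human cells. A transcription factor is usually expected at promoters and enhancers, most of which lie outside coding sequence, but coding exons can hold internal promoters of shorter transcripts and enhancer sequence. In C. elegans, coding exons are richer in GC than the introns between them and most are short, so that a region around a coding summit often takes in intron as well.

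Of the nuclear members, 5 were also in the thresholded list, the deposited set, labelled optimal, that the irreproducible discovery rate procedure gave. Their sequences, the summit base with 50 bases on either side, are shown because they are the strongest members of the nuclear chromosomes. They are on ce11, which is assembly WBcel235, 1-based, 5′ to 3′ on the strand of the gene, and capitals mark coding sequence while lower case marks intron.
mdt-26 (II:5661731-5661831, plus strand): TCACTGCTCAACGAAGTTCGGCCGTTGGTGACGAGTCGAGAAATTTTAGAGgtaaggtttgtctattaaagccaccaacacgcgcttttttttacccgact
Y43F8B.2 (V:19522610-19522710, minus strand): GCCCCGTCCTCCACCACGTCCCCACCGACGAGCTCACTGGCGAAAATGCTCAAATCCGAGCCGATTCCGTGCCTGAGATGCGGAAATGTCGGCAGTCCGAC
dos-3 (III:835972-836072, minus strand): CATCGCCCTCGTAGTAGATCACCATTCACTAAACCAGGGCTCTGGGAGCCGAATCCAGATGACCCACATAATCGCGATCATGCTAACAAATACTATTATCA
catp-8 (IV:11474427-11474527, minus strand): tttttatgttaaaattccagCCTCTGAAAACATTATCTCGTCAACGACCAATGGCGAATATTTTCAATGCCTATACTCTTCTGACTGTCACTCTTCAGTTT
etr-1 (II:164699-164799, plus strand): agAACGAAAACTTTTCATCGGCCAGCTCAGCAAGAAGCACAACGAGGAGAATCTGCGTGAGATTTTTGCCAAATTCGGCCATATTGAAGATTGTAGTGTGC

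The windows of Y43F8B.2 and dos-3 were coding from end to end. The mdt-26 window changed from exon to intron at its middle base, since the summit was the last base of a 72-bp exon, and the catp-8 and etr-1 windows began in the intron before their exon. GC content was 62.4% for Y43F8B.2, 46.5% for dos-3, 45.5% for mdt-26, 44.6% for etr-1 and 35.6% for catp-8. None of the 5 windows held a 31-base word that occurs elsewhere in the genome. On either strand none held the words of tRNA gene internal promoters, GTTCGA and also AGTGGT. The same was true of the word TTGCAA, of the word TAGTTA and of the telomere word TTAGGC.

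The 5 thresholded members were few for the size of the class. They were 0.191% of 2623 members (95% Clopper-Pearson interval 0.0619 to 0.444), while 1.39% of all 29978 nuclear regions were in the thresholded list. The same share was 0.303% (0.203 to 0.435) for regions in introns, 1.81% (1.51 to 2.14) for regions within 500 bp of a start and 25.5% (22.5 to 28.6) for regions within 250 bp of a small RNA gene. The interval of the coding-exon regions overlapped that of the introns and lay below those of gene starts and small RNA genes. These intervals cover the counting of regions only, since the read depth is unknown, and the differences between classes carry no p-value. The 416 nuclear thresholded regions were exactly those of highest pooled signal, so membership of that list and signal rank are the same measure here. The lowest thresholded member had a signal of 95.72 and the highest other member 93.41. For all nuclear regions the corresponding values were 95.31 and 95.23.

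The strongest member lay in mdt-26, which encodes a subunit of the Mediator complex that links transcription factors to RNA polymerase II. Its region spanned 5661658 to 5661955 on chromosome II, with the summit at 5661781 at the end of coding exon 2 of 8 of transcript C25H3.6a.1. Its signal was 228.4 in the pooled list, 99.88 in replicate 1 and 123.8 in replicate 2, and its rank among nuclear regions was 75, 138 and 26 in these lists. It was therefore high in both replicates and ranked higher in replicate 2 than in replicate 1, as did Y43F8B.2 and etr-1 among the 5. The summit was 600 bp from the gene start and 587 bp from the nearest transcript start, just outside the 500-bp limit, and 24.2% of the region was coding.

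The region of Y43F8B.2, a gene without a functional name, had the second highest signal among the members. It spanned 19522415 to 19522904 on chromosome V with its summit at 19522660, in a 161-bp coding segment that is the first of 4 in transcript Y43F8B.2b.1. Signal was 168.8 in the pooled list, 99.78 in replicate 1 and 86.26 in replicate 2. Its nearest gene start was 9008 bp away, but the start of the shorter transcript Y43F8B.2c.1 was 5 bp from the summit, so this member lay at an annotated internal start of its own gene. The replicate 1 region that overlapped it had its own summit at 19522765 and overlapped a neighbouring pooled region of signal 91.21 as well.

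The other thresholded regions lay in dos-3, catp-8 and etr-1. In dos-3, which encodes a protein of the family of Notch co-ligands related to OSM-11, the region spanned 835777 to 836266 on chromosome III with its summit at 836022 in the last of 11 coding exons. Its signal was 124.4 pooled, 90.65 in replicate 1 and 43.01 in replicate 2. Its summit was 271 bp from the 3′ end of dos-3 and 208 bp from that of zip-2, the gene of a bZIP transcription factor on the opposite strand, and the region reached into both genes. Another member of signal 70.17 overlapped it 200 bp away in the same gene.

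In catp-8, which encodes a P-type cation-transporting ATPase, the region spanned 11474232 to 11474721 on chromosome IV with its summit at 11474477 in coding exon 7 of 9. Signal was 112.5 pooled, 76.12 in replicate 1 and 35.03 in replicate 2. This summit lay 286 bp from the snoRNA gene C10C6.8, only a little outside the 250-bp limit, and 225 bp from the ncRNA gene C10C6.11. A stronger thresholded region of signal 319.8, with its summit 199 bp away and 87 bp from that snoRNA gene, overlapped it. It was the only thresholded member that overlapped a stronger region; how far the signal of the neighbour enters its value was not tested.

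In etr-1, which encodes an ELAV-type RNA-binding protein needed for muscle development in the embryo, the region spanned 164504 to 164993 on chromosome II with its summit at 164749 in coding exon 3 of 11 of transcript T01D1.2l.1. Its signal was 95.72 pooled, 51.91 in replicate 1 and 48.34 in replicate 2, with ranks of 666 and 327 in these lists. The gene start was 2375 bp away and the start of transcript T01D1.2p.1 only 108 bp away. Of the 5 thresholded members, then, 2 lay within 500 bp of the start of an alternative transcript of the same gene, 1 lay beside a snoRNA gene, and mdt-26 and dos-3 had neither within 500 bp.

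**Figure D1:**
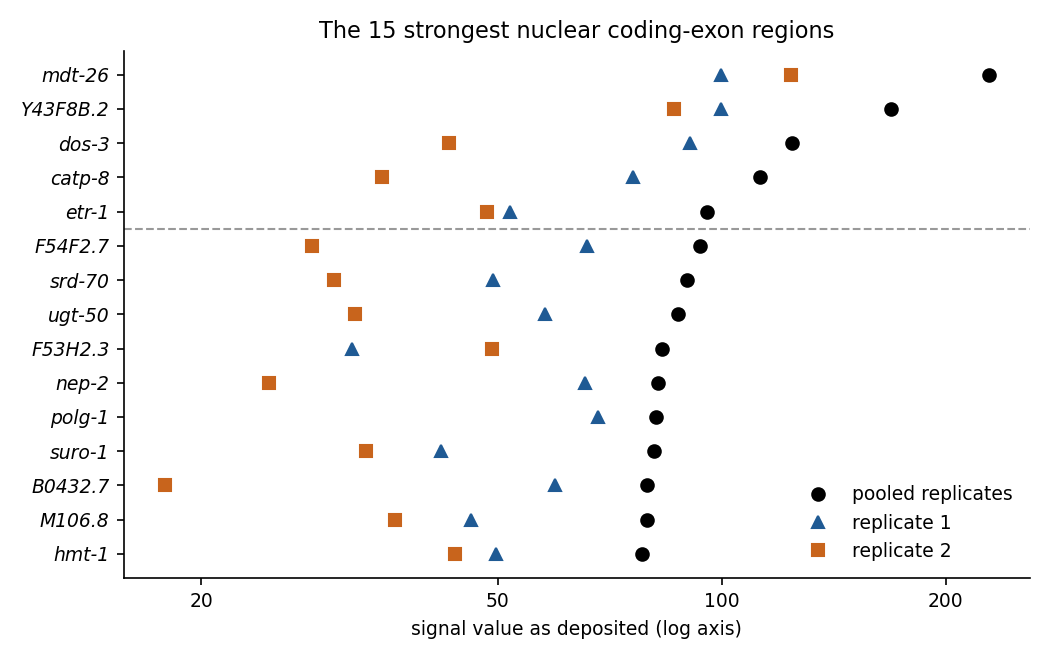
Signal value as deposited (horizontal log axis) of the 5 thresholded coding-exon regions, above the dashed line, and the 10 strongest others, below it, named by gene. Black circles are the pooled list, blue triangles replicate 1 and orange squares replicate 2; pooled values run from 228.4 at mdt-26 to 78.21 at hmt-1, and polg-1 has no region in replicate 2.

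Below the threshold the next members followed without a gap. F54F2.7, a gene without a functional name, had a pooled signal of 93.41, with 65.85 in replicate 1 and 28.19 in replicate 2. The next, srd-70, a chemoreceptor gene, followed at 89.78 (49.37 and 30.12) and ugt-50, of the UDP-glucuronosyltransferase family, at 87.36 (57.89 and 32.19). The summit in ugt-50 lay 69 bp from a transcript start and 369 bp from the miRNA gene cel-mir-62. F53H2.3, at 83.24, had a signal of 31.85 and rank 4342 in replicate 1 and a signal of 49.18 and rank 310 in replicate 2. The other genes were nep-2, which encodes a neprilysin-type peptidase, polg-1, which encodes the catalytic subunit of mitochondrial DNA polymerase, suro-1, B0432.7, M106.8 and hmt-1, which encodes an ABC transporter of heavy-metal tolerance. Their pooled signals ran from 82.04 to 78.21. The region in polg-1 had a signal of 68.30 in the list of replicate 1 and no region in replicate 2, so 9 of these 10 members were found in both replicates.

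The position rule set aside more thresholded regions in coding sequence than it kept. Of 20 thresholded summits inside coding sequence, 5 were members, 8 lay within 500 bp of a start, 6 within 250 bp of a small RNA gene and 1 within both distances. Among those near a start were the histone genes his-60, at 192.8, and his-32, at 166.7, and pop-1, the gene of the TCF factor of Wnt signalling, at 98.69. Those beside small RNA genes included cutl-18, at 155.7 and 84 bp from a snoRNA gene, and cye-1, the cyclin E gene, at 96.87 and 141 bp from a tRNA gene. The closest to membership was cng-3, the gene of a cyclic nucleotide-gated channel, at 112.4, with its summit 498 bp from a start and 255 bp from a snoRNA gene. For all signal levels, 129 members lay within 600 bp of a start, in the first 100 bp beyond the limit, and 153 coding summits away from small RNA genes lay in the last 100 bp inside it and were left out.

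Coding exons away from starts held fewer regions than their share of the genome. They made up 19.2% of nuclear sequence and held 8.75% (8.43 to 9.08) of nuclear regions, or 136.5 regions per Mb (exact Poisson interval 131.3 to 141.8) of 19.22 Mb of eligible coding sequence. The density was 332.4 per Mb (325.8 to 339.1) in introns away from starts, 285.0 (278.9 to 291.1) between genes, 432.3 (409.9 to 455.6) in noncoding exon sequence, 382.2 (373.4 to 391.2) near starts and 299 over the nuclear genome. No interval of another class reached down to that of the coding exons. The deficit was larger among strong regions: coding-exon regions were 1.20% (0.391 to 2.78) of the 416 strongest nuclear regions, 2.70% (1.79 to 3.90) of the 1000 strongest and 5.14% (4.54 to 5.79) of the 5000 strongest. Each replicate list alone ran the same way, with 8 of the 416 strongest regions in replicate 1 and 4 in replicate 2, against 8.94% of all regions in replicate 1 and 11.0% in replicate 2. The pooled list holds the reads of both replicates, so these lists are not independent of it.

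**Figure D2:**
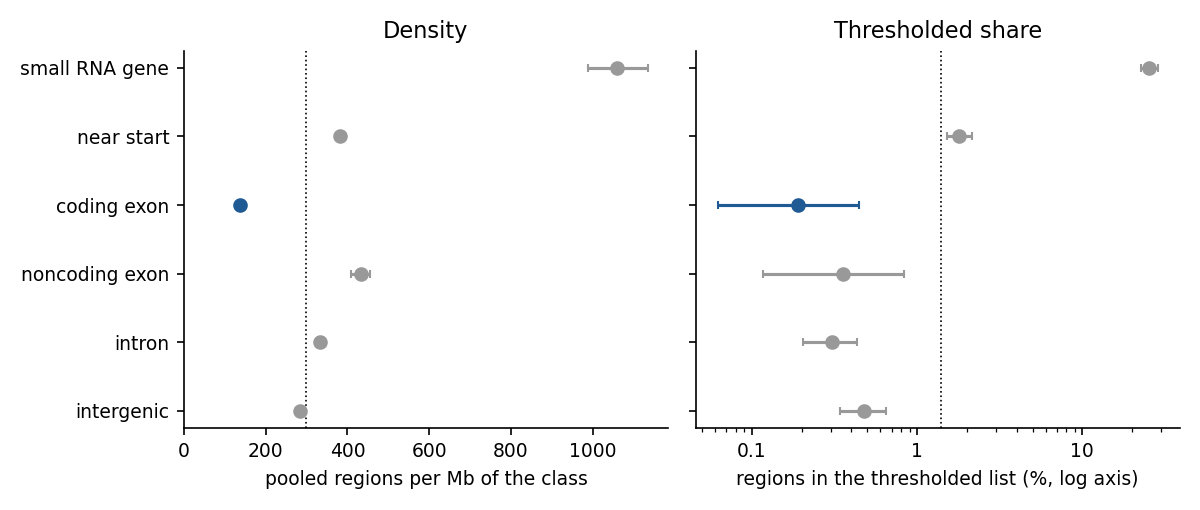
Left, pooled nuclear regions per Mb of each class of sequence; right, percent of the regions of each class in the thresholded list (log axis). Points are values, bars 95% exact intervals and dotted lines the values over all nuclear regions (299 per Mb and 1.39%); coding exons, in blue, are lowest on both axes at 136.5 per Mb and 0.191%, and on the right their interval overlaps those of noncoding exons, introns and intergenic sequence.

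Signal within the class was low and narrow. The median pooled signal of members was 28.96, with quartiles of 24.88 and 35.50, against 30.68 (25.60 and 39.10) for all nuclear regions and 30.11 for introns. The range ran from 21.67, the lowest value of the pooled list, to 228.4. The 95th percentile of members was 49.91 and the 99th was 69.29, so the 5 thresholded members stood well above nearly all others. Members on the X chromosome had a median of 28.61, with 8 of 365 at a signal of 50 or more, while chromosome II had 33 of 418 at that level and a median of 30.10.

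Fewer members than regions elsewhere were found in both replicates. A replicate region overlapped 1708 members (65.1%) in replicate 1 and 1413 (53.9%) in replicate 2. Both replicates had one at 815 members, 31.1% (29.3 to 32.9), against 39.6% of all nuclear regions and 35.8% (34.8 to 36.8) of introns. Replicate 1 alone supported 893 members and replicate 2 alone 598, and 317 had no region in either list although they were called from the pooled reads. Median signal at members was 24.02 in the list of replicate 1 and 18.11 in that of replicate 2; the lists have their own scales.

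Replicate support followed signal rank closely. All of the 5 strongest members were in both replicates, as were 95% of ranks 6 to 25 and 93.3% of ranks 26 to 100. The share was 65.5% for the next 400 members, 39.4% for the next 500, 19.8% for the next 1000 and 10.3% for the last 623. By an overlap of at least 1 base, 94 of the 100 strongest members were thus in both replicates while most of the class was not. With at least 50% of both regions shared these were 86 of 100 and 21.5% of all members, and with summits within 100 bp 63 of 100 and 10.3%. Across the 815 members found in both replicates, which share their calls with the pooled list and are not independent samples, Pearson's r of log2 signal was 0.28 and Spearman's rho 0.18. Without the 5 thresholded members these values were 0.20 and 0.17 over 810 members. Introns gave 0.27 and 0.15 over 3424 regions.

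**Figure D3:**
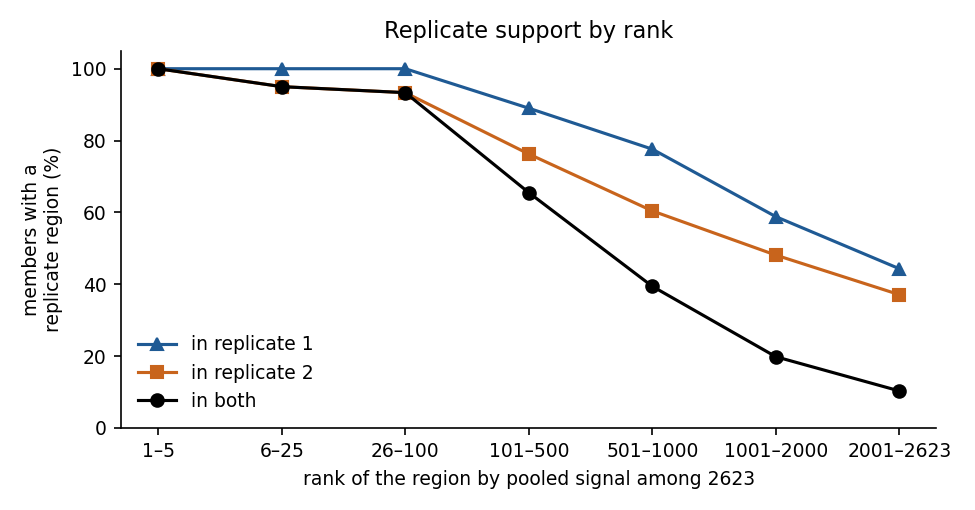
Percent of nuclear coding-exon regions with an overlapping region in replicate 1 (triangles), replicate 2 (squares) and both (circles), by rank of pooled signal. The share in both falls from 100% for the 5 strongest to 10.3% for the 623 weakest.

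Called separately, the replicates picked mostly different coding positions. The rule applied to each replicate list gave 2269 coding-exon regions in replicate 1 and 2520 in replicate 2. Of those in replicate 1, 375 (16.5%) overlapped a coding-exon region of replicate 2; in the other direction it was 373 (14.8%). Overlap with a region of any class was more frequent, at 33.1% (31.2 to 35.1) and 33.9% (32.0 to 35.8), so the overlapping region often had its summit outside eligible coding sequence in the other replicate. For all nuclear regions the overlap with the other list was 42.9% (42.3 to 43.5) from replicate 1 and 46.7% (46.1 to 47.4) from replicate 2. Introns gave 39.9% and 42.9% with any class and 33.6% and 37.1% with introns. Among the 416 strongest nuclear regions of replicate 1, the coding-exon regions lay in Y43F8B.2, dos-3, catp-8, cng-3, polg-1, F54F2.7, etr-1 and dhc-4; those of replicate 2 lay in Y43F8B.2, F53H2.3, cdc-7 and etr-1. The etr-1 regions were not the same: that of replicate 1 had its summit at 166769 and that of replicate 2 at 164709, and the latter overlapped the thresholded member. The mdt-26 summit lay outside the eligible coding sequence in both replicate lists.

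Members sat near the edges of exons. The median exon holding a member was 204 bp long, against 275 bp for eligible coding bases, and the median summit was 45 bp from an edge of coding sequence, against 61 bp. Density fell as exons grew longer: it was 198.2 per Mb (184.8 to 212.2) in segments under 150 bp, 163.4 from 150 bp to under 300, 108.7 from there to under 600, 74.5 from there to under 1200 and 43.2 (32.4 to 56.3) at 1200 bp or more. Depth inside the exon gave a fall that began about 50 bp from the edge. Within 25 bp of an edge there were 170.3 regions per Mb (158.2 to 183.1) and at 25 to 50 bp 179.5 (166.4 to 193.3), with overlapping intervals. The density was 146.1 at 50 to 100 bp, 62.3 at 200 to 400 bp and 36.1 (25.2 to 50.3) at 400 bp or more.

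The change across the edge was gradual. In introns away from starts, density was 368.2 per Mb (356.4 to 380.4) at 400 bp or more from coding sequence, highest at 423.2 per Mb (406.0 to 440.9) at 200 to 400 bp, and then fell to 338.7 at 100 to 200 bp, 248.6 at 25 to 50 bp and 185.0 (171.3 to 199.5) at less than 25 bp. The intron side next to the edge and the exon side next to it thus had overlapping intervals. The regions, 490 bp wide at the median, usually took in more than the exon under the summit, and 62.5% of members had a region at least 50% coding. In the 491 bp around the summit, members were 56.0% coding at the median, against 70.7% for eligible coding bases. Density was 347.7 per Mb (296.5 to 405.1) where under 25% of that window was coding and 47.8 (39.0 to 58.1) where all of it was. Wholly coding windows held 3.85% of the members, against 11.0% of eligible sequence. Signal did not follow this gradient, with medians of 28.72 in the least coding windows and 29.55 in wholly coding ones.

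**Figure D4:**
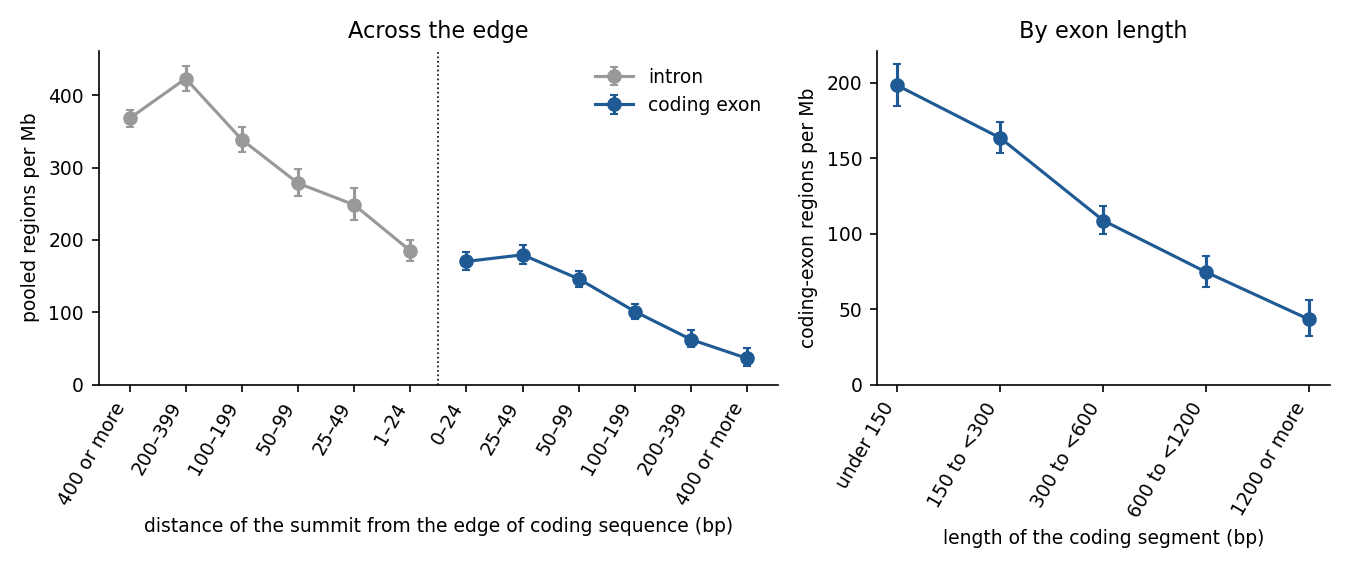
Left, pooled regions per Mb by distance of the summit from the edge of coding sequence, introns in grey and coding exons in blue, away from starts and small RNA genes; right, coding-exon regions per Mb by length of the coding segment. Bars are 95% exact Poisson intervals; density falls from 423.2 in introns at 200 to 400 bp to 36.1 at 400 bp or more inside exons, and from 198.2 to 43.2 with exon length.

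By place in the gene, 1971 members (75.1%) lay in internal coding exons, 561 (21.4%) in the last and 88 (3.36%) in the first, with 3 in genes of a single coding exon. Gene starts are excluded by the rule, which leaves little of most initial exons. The distance to the nearest gene start, of which the rule used only the first 500 bp, had a median of 1834 bp. Density was 131.2 per Mb (109.3 to 156.2) from 500 to 600 bp, 118.1 from 600 to 700 bp, 128.5 from 1000 to 2000 bp and 166.5 (150.4 to 183.8) from 4000 to 8000 bp. In coding sequence nearer to starts, outside the class, it rose to 394.3 per Mb (359.6 to 431.5) in the first 100 bp from the start.

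Starts of alternative transcripts, which the rule did not use, marked a denser subset. Within 500 bp of the start of any protein-coding transcript lay 321 members, 233.0 per Mb (208.2 to 260.0), of which 40.5% (35.1 to 46.1) were in both replicates and 2 were thresholded. Beyond that distance lay 2302 members, 129.0 per Mb (123.8 to 134.4), with 29.8% (27.9 to 31.7) in both and 3 thresholded. Neither pair of intervals overlapped. Within 100 bp of a transcript start the density was 302.0 per Mb (252.6 to 358.1), from 132 members, an interval that includes the 332.4 of introns. Median signal differed little, at 30.21 and 28.85.

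Base composition depended on the width of the window. Within 50 bases of the summit, members had a median GC content of 41.6%, against 40.6% for eligible coding sequence and 33.7% for all nuclear regions. Within 200 bases the order was the opposite, 37.4% for members and 38.7% for eligible sequence. Where this wider window held under 30% GC, density was 280.8 per Mb (234.4 to 333.6); at 45 to 50% it was 99.7 (86.0 to 114.8). In the narrower window the highest density was at 55% GC or more, with 189.9 per Mb (156.3 to 228.4) and 41.1% of 112 members in both replicates. Density there did not rise steadily with GC. It was 156.4 per Mb (129.4 to 187.3) under 30% GC and lowest, at 128.0 (118.4 to 138.2), from 35 to 40%.

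Sequence that occurs more than once in the genome held few members. Where no 31-base word of the narrower window was repeated, density was 143.0 per Mb (137.5 to 148.7). Where all were repeated, 6 members lay in 0.475 Mb, a density with an interval of 4.63 to 27.5 per Mb. The sources used here do not say how reads with several matches in the genome were treated. For 4 of the 5 words the interval of the members included the share of eligible coding positions with that word in their window. The exception was AGTGGT, in 4.92% of member windows (4.12 to 5.82) against 3.95% of eligible positions. TTAGGC was in 1.14% (0.773 to 1.63) of members, 1.03% of eligible positions and 3.47% of all nuclear regions. GTTCGA was in 4.65% (3.88 to 5.53) of members and 5.33% of eligible positions, while 23.3% of all thresholded nuclear regions held it. TTGCAA was in 5.11% of members and 5.31% of eligible positions, and TAGTTA in 2.17% and 2.00%. A match of letters is no evidence of a binding site.

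Across the nuclear chromosomes the density of members varied little. It was highest on chromosome III, at 152.0 per Mb (138.0 to 167.1), and lowest on the X, at 125.9 (113.3 to 139.5), with overlapping intervals. Of the X members 25.2% were in both replicates, and of those on chromosome II 36.1%. On the autosomes the central 33.3% of each chromosome had 117.8 members per Mb (109.7 to 126.4), fewer than the left arm side, at 149.7 (139.0 to 160.9), and the right, at 155.1 (144.2 to 166.7). The 65 members within 250 bp of a piRNA gene had a density of 194.9 per Mb (150.4 to 248.4), but 18.5% of them were in both replicates.

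The members fell in many genes, mostly a single region each. Of 18045 genes with eligible coding sequence, 2192 (12.1%) held a member. Of these genes, 1858 held 1, 262 held 2, 55 held 3 and 17 held 4 to 6. Members of the same gene can overlap each other, as in dos-3, so they are not always separate positions. The most, 6, lay in ajm-1, which encodes a protein of the apical junctions of epithelia, on the X chromosome. Their pooled signals ran from 25.39 to 51.61 and 5 were in both replicates, in 5.56 kb of eligible sequence that would hold 0.758 members at the mean density. Since ajm-1 was named for having the most members, an excess over that mean was fixed by the choice. Also with 5 members were afd-1, the afadin gene, unc-44, an ankyrin gene, unc-73, a Trio-type guanine nucleotide exchange factor gene, chd-7, a chromodomain helicase gene, and par-1, the kinase gene of embryonic polarity. Of these, par-1 had 4 members in both replicates, afd-1 and unc-73 had 1 each, and unc-44 and chd-7 had 2 each. Several genes of this set have many transcript starts: 3 of the 5 members of par-1 and 2 of the 6 of ajm-1 lay within 500 bp of one.

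In cbp-1, as in chd-7, no member lay near a transcript start. The gene encodes the histone acetyltransferase related to CBP and p300, and all 5 of its members were in both replicates. Pooled signals were 60.38, 49.58, 45.03, 40.24 and 32.03, with 36.41, 20.85, 30.59, 35.85 and 28.13 in the list of replicate 1. Those of replicate 2 were 30.64, 24.01, 27.44, 24.01 and 28.45. The equal values of 24.01 come from 1 region of replicate 2 that overlapped a pair of neighbouring pooled regions. The first 4 lay in 1 coding exon of 3213 bp, a length class with 43.2 members per Mb over the genome. They did not cover it evenly, with the strongest summit 8 bp from the exon edge.

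Among 20 lists of gene families and functions, most had densities whose interval included the value of 136.5 per Mb for all eligible sequence. Genes for protein folding stood highest: 8 of 21 chaperone genes held 10 members, 391.3 per Mb (187.6 to 719.6). Of these 10 members, 7 were in both replicates, or 70% (34.8 to 93.3). The intervals are not adjusted for the number of lists, which were chosen with earlier results of these data known. Members of the same gene are not independent counts. Their median signal was 35.88, against 28.96 for all members. The strongest were in hsp-110, at 57.66 pooled, 34.27 in replicate 1 and 16.73 in replicate 2, in cct-5, a subunit gene of the cytosolic chaperonin, at 39.78 with 27.70 in replicate 2 and no region in replicate 1, and in dnj-19, a DnaJ gene, at 38.41 with 29.07 in replicate 1 and no region in replicate 2. None of the 10 reached the signal of the thresholded list.

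Maternal and early embryo genes held 9 members in 4 of 29 genes, 193.3 per Mb (88.4 to 366.9), with 7 in both replicates. Of these 9 members, par-1 alone held 5, with 4 of them in both replicates. Others lay in par-3, a polarity gene with a highest signal of 41.00, and in pie-1, the germline fate gene, at 26.03. That in skn-1, the gene of a transcription factor of early cell fate, had a signal of 21.89. Chromatin regulator genes held 20 members in 11 of 35 genes, 171.5 per Mb (104.8 to 264.9), led by nurf-1, a subunit gene of the NURF remodeling complex, at 67.84, cbp-1 and set-16, a histone H3 methyltransferase gene, at 41.50. The 9 in both replicates included the 5 of cbp-1. Extracellular matrix and adhesion genes held 26 members in 13 of 26 genes, 113.2 per Mb (74.0 to 165.9), led by the laminin gene lam-2 at 49.94 and the cadherin gene hmr-1 at 49.06.

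Families with low densities were those of muscle and of the transcription and splicing machinery. Muscle genes held 9 members in 7 of 20 genes, 50.2 per Mb (23.0 to 95.3). Among these genes were ttn-1, the titin gene, at 48.41 pooled and act-4, an actin gene, at 41.14 pooled. In replicates 1 and 2 the order was the opposite, with 26.02 and 21.06 for ttn-1 and 42.97 and 42.85 for act-4. The act-4 summit lay 47 bp from a transcript start, and repeated 31-base words covered 35.6% of its window. Transcription and splicing genes held 2 members in 2 of 25 genes, or 28.2 per Mb (3.42 to 101.9). These lay in mdt-15, another Mediator subunit gene, at 33.90 and in uaf-2, of the splicing factor U2AF, at 22.74. The mdt-15 member had no region in replicate 1, and that of uaf-2 had none in either replicate. The uaf-2 summit lay 48 bp from a transcript start, and repeated 31-base words covered 97% of its window. F-box and MATH-domain genes had 82.2 per Mb (52.1 to 123.3) from 23 members and C-type lectin genes 78.4 (42.9 to 131.6) from 14, of which 1 was in both replicates. The intervals of these 4 lists lay below 136.5. Exon length moved with density over all members, and its part in the densities of these lists was not tested.

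The large family of chemoreceptor genes was close to the mean, with 125 members in 8.55% of 1357 genes, 139.8 per Mb (116.4 to 166.6), as were cuticle collagen genes, with 15 members and 136.2 per Mb, and nuclear hormone receptor genes, with 31 members and 121.3 per Mb. Of the chemoreceptor members 24.8% (17.5 to 33.3) were in both replicates, an interval that includes the 31.1% of all members. The strongest in these families were srd-70, sqt-3, a cuticle collagen gene, at 63.60 and nhr-288 at 48.06. Smaller counts came from aminoacyl-tRNA synthetase genes (5 members), cytoskeleton and motor genes (7), proteasome subunit genes (3) and P granule genes (2). Translation factor genes held 2, and cytosolic ribosomal protein genes and histone genes 1 each. The 6 vitellogenin genes held none, with an exact Poisson interval that reaches 140.8 per Mb, and the 31 major sperm protein genes had no eligible sequence. No gene of any list held a thresholded member; the Mediator subunit gene mdt-26, which held the strongest, was not among those listed for the transcription machinery, although mdt-15 was.

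**Figure D5:**
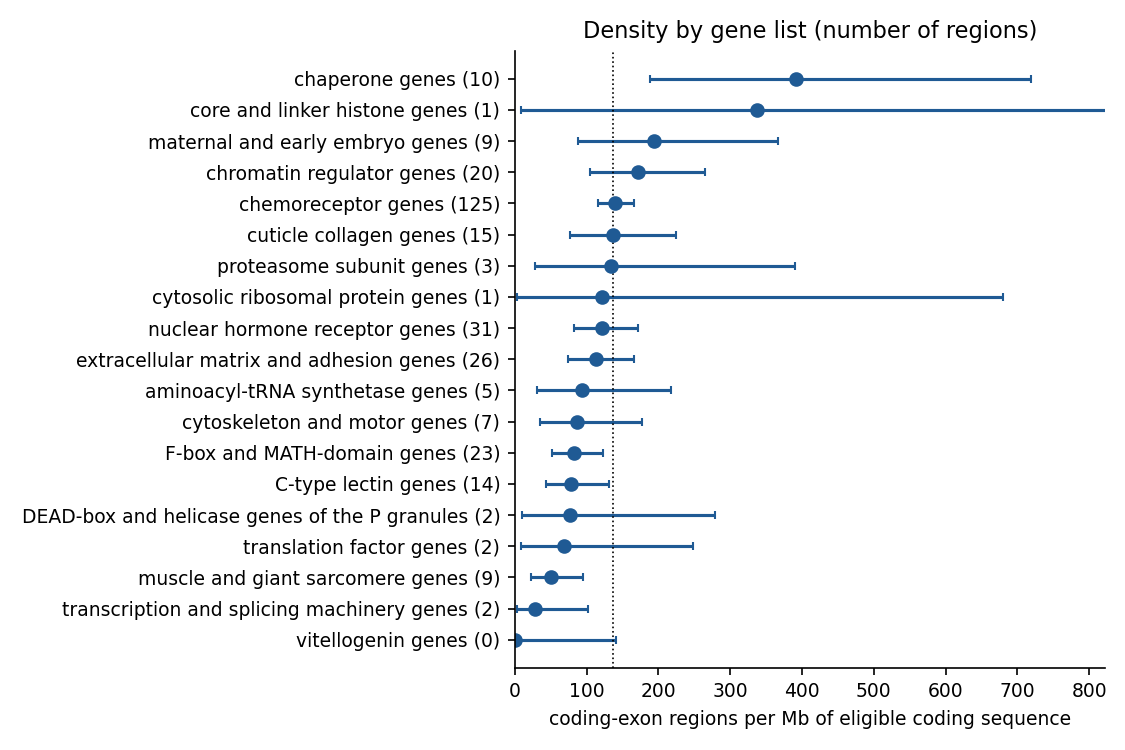
Coding-exon regions per Mb of eligible coding sequence for each gene list, with the number of regions in brackets; bars are 95% exact Poisson intervals and the dotted line is the value for all eligible sequence, 136.5. Chaperone genes are highest at 391.3 and the interval of the histone genes runs beyond the axis.

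Members also shared sequence with stronger neighbours. A pooled region of higher signal overlapped 464 members (17.7%), most often one in an intron (223) or in another coding exon (114), and one at a small RNA gene in 6 cases. The same count was not made over all nuclear regions. With overlapping regions counted once, 2152 of 2623 members and 24078 of 29978 nuclear regions remained, so overlap was not particular to this class. Outside the thresholded members themselves, 6 members overlapped a thresholded region. The strongest such neighbours were a region of 284.5 between genes next to D2096.7, whose own member had 27.57, and a region of 260.5 beside an snRNA gene next to dhc-4, a dynein heavy chain gene, whose own member had 65.97.

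The mitochondrial members lay in genes of the respiratory chain, and 3 of the 4 had pooled signals far above those of every nuclear member. The pooled signal of that in COX1 lay within the range of the thresholded nuclear members. With their summits in ND5, a subunit gene of complex I, were 2 regions, with pooled signals of 2703 and 1309; replicate 1 gave 1436 and 536.8 and replicate 2 gave 1295 and 625.3. The region in ND4, of the same complex, had 1226 pooled, 947.3 in replicate 1 and 1018 in replicate 2. The region in COX1, of cytochrome oxidase, had 126.3 pooled, 148.5 in replicate 1 and 250 in replicate 2. These replicate values were above those of mdt-26, the strongest nuclear member, at 99.88 and 123.8. All 4 were in the thresholded list, as were 21 of all 22 mitochondrial regions of the pooled list. They lay in broad intervals of 4138 and 5049 bp that hold several summits each, so they are not separate regions, and the number of mitochondrial genomes per cell was not measured.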

How the data were processed

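Whole early embryos of 1 strain were profiled by ChIP-seq in 2 biological replicates. The deposited files are region lists; per the file headers and notes, each replicate and the pool of both had a relaxed list called against a shared control, and the irreproducible discovery rate procedure then gave the thresholded list. The signal per region and its −log10 q value are the authors' own as deposited, and signal was used only to rank and describe. For the aligner, the caller, their settings and the read depth, nothing is given in the sources used here. Files on ce11 were used. Chromosome lengths equalled those of the WBcel235 reference, and gene models were from Ensembl release 115; RefSeq gave the names of mitochondrial genes.

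Classes were assigned in the order small RNA gene, gene start, coding exon, noncoding exon, intron, intergenic. Density is regions per Mb of sequence that meets the same rule, counted base by base. Thresholded and pooled regions were matched by equal summit, and replicate regions by at least 1 shared base. Where several replicate regions overlapped, the one with the nearest summit gave the signal. Shares have exact Clopper-Pearson and densities exact Poisson intervals at 95%; they cover counting only. No test was made, since there is 1 group. The genes named are those of all thresholded members, of the 10 strongest others, the 10 with most members and up to 3 per list. Python 3.11.15, numpy 2.4.6, pandas 2.3.3 and scipy 1.17.1 were used, and the class assignment was checked on simulated data. Members and lists were chosen with earlier results of these data known. Regions in skn-1, cng-3, dhc-4, D2096.7, the excluded genes and the coding-exon regions of the separate replicate lists were named after their values were seen.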

Additional observations from a re-analysis of the deposited data

How the results depend on the processing

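Of 47 recomputed values, 30 stayed inside the counting interval of the reported value and 17 moved outside it. The coding-exon share of nuclear regions, 8.75%, became 10.2% with starts kept 250 bp away, 6.79% with 1000 bp, 8.35% with ncRNA, piRNA and pseudogenes also avoided, 7.68% with all transcript starts and 3.98% with summits at least 50 bp inside the exon. Density, 136.5 per Mb, became 129.0 with all transcript starts, 108.1 with summits 50 bp inside the exon and 112.0 with overlapping regions counted once. The share in both replicates, 31.1%, became 25.7% with overlapping regions counted once, 21.5% where at least 50% of both regions had to be shared and 10.3% where summits had to lie within 100 bp. With the list of replicate 1 or replicate 2 alone, the share of regions ran from 8.94% to 11.0%, the density from 118.1 to 131.1 per Mb, the median signal from 16.5 to 22.1, on each list's own scale, and the share overlapping the thresholded list by at least 1 base from 0.357% to 0.485%. That last pair also changed the matching: the pooled list gave 0.419% by overlap and 0.191% by equal summits.

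Of the 5 thresholded members, mdt-26 left with starts 1000 bp away, catp-8 with small RNA genes 500 bp away, with ncRNA genes avoided and with overlapping regions counted once, Y43F8B.2 and etr-1 with all transcript starts, and mdt-26, catp-8 and etr-1 with the 50-bp inset; dos-3 was kept by every one of these. An overlap of 1 base in place of equal summits gave 11 thresholded members. No paired analysis was possible because there is 1 group. Read depth is unknown, and no control immunoprecipitation was analysed here.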
